A study of Macaca mulatta with 56 samples.

Results

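The genes described here are 8 components of dopamine and noradrenaline signalling, among 17807 Ensembl identifiers in a deposited table of normalized reads from rhesus macaque brain. They are the dopamine receptors DRD1, DRD2 and DRD5, the phosphatase inhibitor PPP1R1B, and the adrenergic receptors ADRA1A, ADRA1B, ADRA2A and ADRB1. The members were chosen by gene symbol, with earlier results of these data known. Amygdala columns were read under the names they carry. In the other regions a row was used only where its mean log2(value + 1) over hippocampus, occipital cortex and prefrontal cortex lay within 2 of its mean over amygdala. That condition was met by 7 of the 8 members, all but DRD2, and by 13520 (75.9%) of all identifiers.

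Dopamine from the midbrain and noradrenaline from the brainstem reach amygdala, hippocampus and cortex through diffuse projections. DRD1 and DRD5 encode receptors that raise cyclic AMP, whereas DRD2 encodes a receptor that lowers it, and PPP1R1B encodes DARPP-32, which blocks protein phosphatase 1 once protein kinase A has phosphorylated it. Among the adrenergic receptors, ADRA1A and ADRA1B couple to phospholipase C, ADRA2A lowers cyclic AMP and also acts as a release-limiting autoreceptor, and ADRB1 raises cyclic AMP.

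The OvH-HT group held 7 animals whose ovaries and uterus had been removed and which then carried capsules releasing estradiol, with a mean serum level of 82.1 pg/mL. The OvH group held 7 animals with the same operation and empty capsules, at 6.6 pg/mL. All 14 were old females (19.4 to 23.2 years) on a Western-style diet whose energy was 36% fat and 18.5% sugars (chow has 13% and 6%) and that began about 6 weeks before the operation. No animal with ovaries and none on chow was included, and the series text gives both 30 and 32 months for the treatment, so its length is uncertain. Each animal gave 1 bulk messenger RNA library per region, 56 in all, with 34.6 to 93.3 M counted reads.

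Some libraries and rows limit what can be read from these genes. Mean levels correlated across identifiers at a Spearman rho of 0.978 to 0.987 among hippocampus, occipital cortex and prefrontal cortex, but at 0.535 to 0.547 between amygdala and each of them, so rows on the 2 sides do not always hold the same transcript (genes are not independent replicates). The mean log2 level in amygdala minus that in the other 3 regions was 0.06 for DRD5, -0.12 for PPP1R1B, -0.25 for ADRA1A, -0.89 for ADRA1B, -1.19 for ADRA2A and -1.31 for ADRB1. DRD1, at -1.87, lay just inside the limit, and DRD2, at 4.54, was the only member outside it. Exchanging a row with its neighbour outside amygdala brought the levels nearer for DRD1 (with CNTFR), DRD2 (with PKHD1) and ADRB1 (with DMRTA1). It did so for 18.5% of the identifiers that met the condition, a base that leaves out DRD2. Over the 14 animals, deviations of amygdala DRD1 from its group means had an r of -0.23 with the row named DRD1 elsewhere and 0.40 with the CNTFR row, whereas ADRB1 had 0.32 with its own row and -0.06 with the neighbour. The r of ADRB1 with its own row did not pass (adjusted permutation p = 0.610). It lay below the median of 0.38 over 11501 genes, so it does not settle which row holds ADRB1. No row was reassigned. Outside amygdala, DRD1 and ADRB1 therefore stand for the rows of those names, and DRD2 was read in amygdala only.

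The libraries labelled hippocampus of animals 30 and 43, both OvH, stood apart from the other 12 in several markers. FIBCD1, a gene of hippocampal CA1 neurons, had 226 and 340 normalized reads there, against 4239 to 15186 in the other 12 hippocampus libraries. The cortical neuron genes CUX2 (4004 and 3539, against 117 to 704) and RORB (4278 and 1727, against 20.1 to 195) were far above that range. TBR1 was also above the range of the other 12 (7910 and 3986, against 1039 to 3055). SLC17A7 was below it (63598 and 57503, against 88869 to 210296). The other hippocampal markers were mixed. NEUROD2 had 1588 and 1752, just below the other 12 (1782 to 4778). PROX1, a dentate granule neuron gene, had 393 and 344, inside the range of the other 12 (152 to 1045), and ZBTB20 had 188 and 234, above it (45.6 to 149). What tissue these 2 libraries hold was not tested. DRD5, ADRA1B and ADRB1 stood apart with them. DRD5 had 562 and 426 normalized reads in these 2 libraries against 29.9 to 151 in the other 12, ADRA1B had 1057 and 685 against 125 to 362, and ADRB1 had 426 and 331 against 99.2 to 207. The main hippocampus results are therefore given with and without both animals. Choroid plexus markers (3 of 7 listed, summed) reached 1465 k normalized reads in the OvH-HT animal 40 and 1328 k in the OvH animal 33, against at most 49.7 k in the other hippocampus libraries.

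**Figure D1:**
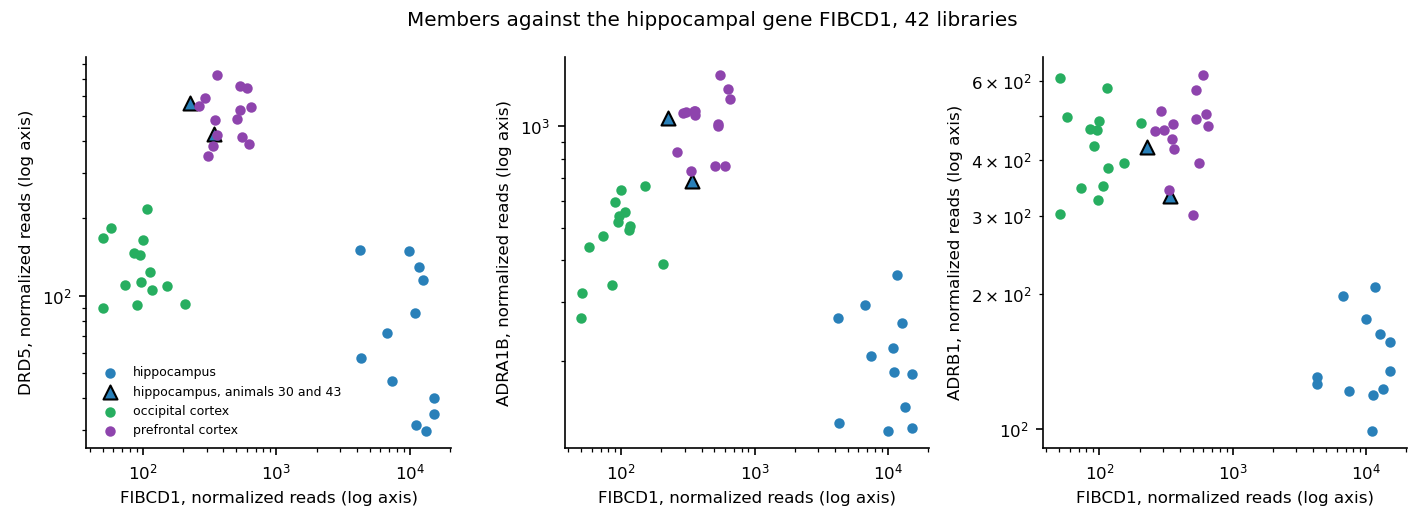
Normalized reads of DRD5, ADRA1B and ADRB1 (y axes, log) against FIBCD1 (x axes, log) in 42 libraries of hippocampus, occipital cortex and prefrontal cortex, 1 point per library. Triangles mark the libraries labelled hippocampus of animals 30 and 43, which lie at 226 and 340 reads of FIBCD1, among cortical libraries and below the other hippocampus libraries at 4239 to 15186.

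The first comparison asked whether estradiol changed these genes in amygdala. None of the 8 members passed the test there (limma on log2(value + 1), Benjamini-Hochberg adjusted p over 16129 identifiers, threshold 0.05), while 6.89% of all identifiers did, 6.16% higher and 0.732% lower in OvH-HT. At an unadjusted p under 0.05 limma gave 0 members and 21.5% of all identifiers. On recovered reads edgeR and DESeq2 called 0 members, against 6.31% and 10.7% of all identifiers. At an unadjusted p under 0.05 each had 2 of 8 members, against 25.9% of all identifiers by edgeR and 24.8% by DESeq2. The point estimate was lower in OvH-HT for 6 of 8 members, with a median log2 difference of -0.23 against 0.01 over all identifiers. Values of the groups overlapped for every member.

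DRD5 and ADRA2A had the lowest point estimates. DRD5 ranged from 99.7 to 323 normalized reads (median 139) in OvH-HT amygdala, against 91.3 to 407 (median 297) in OvH. In OvH-HT 6 of 7 animals lay below the OvH median, and the exception, animal 39 at 323, was far above the other OvH-HT animals. The log2 difference was -0.70 ± 0.34 (SE, n = 7 per group; 95% confidence interval -1.41 to 0.01, limma adjusted p = 0.239). ADRA2A ranged from 9.87 to 61.5 normalized reads (median 33.5) in OvH-HT, against 22.9 to 157 (median 66.5) in OvH. All 7 OvH-HT animals were below the OvH median, yet 3 OvH animals lay within the OvH-HT range. Its log2 difference was -0.86 ± 0.46 (SE, n = 7 per group; interval -1.83 to 0.11, limma adjusted p = 0.297), and it rested on as few as 10 recovered reads in a library.

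DRD1 ranged from 773 to 1712 normalized reads (median 1247) in OvH-HT amygdala, against 531 to 2514 (median 1777) in OvH. All 7 OvH-HT animals were below the OvH median, but the lowest value of all was an OvH animal. The log2 difference was -0.32 ± 0.31 (SE, n = 7 per group; interval -0.98 to 0.34, limma adjusted p = 0.604). DRD2 spanned 136 to 607 reads (median 455) in OvH-HT and 242 to 811 (median 371) in OvH, with the medians and the fitted difference of -0.11 on opposite sides. PPP1R1B spanned 10577 to 22241 (median 12578) in OvH-HT and 10074 to 16859 (median 11105) in OvH, and its log2 difference of 0.16 ± 0.16 (SE, n = 7 per group; interval -0.19 to 0.50) was the narrowest estimate among the 8.

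The remaining adrenergic receptors overlapped widely. ADRA1B had 168 to 370 normalized reads (median 214) in OvH-HT and 186 to 479 (median 296) in OvH, a log2 difference of -0.35 (interval -0.84 to 0.15). ADRA1A had 112 to 342 (median 158) in OvH-HT and 70.1 to 353 (median 218) in OvH, with a fitted difference of 0.01 (interval -0.77 to 0.78). ADRB1 had 77.0 to 212 (median 116) in OvH-HT and 68.5 to 214 (median 149) in OvH, a difference of -0.13 (interval -0.76 to 0.49). These intervals are wide, so moderate differences in either group's favour could not be detected with 7 animals per group.

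**Figure D2:**
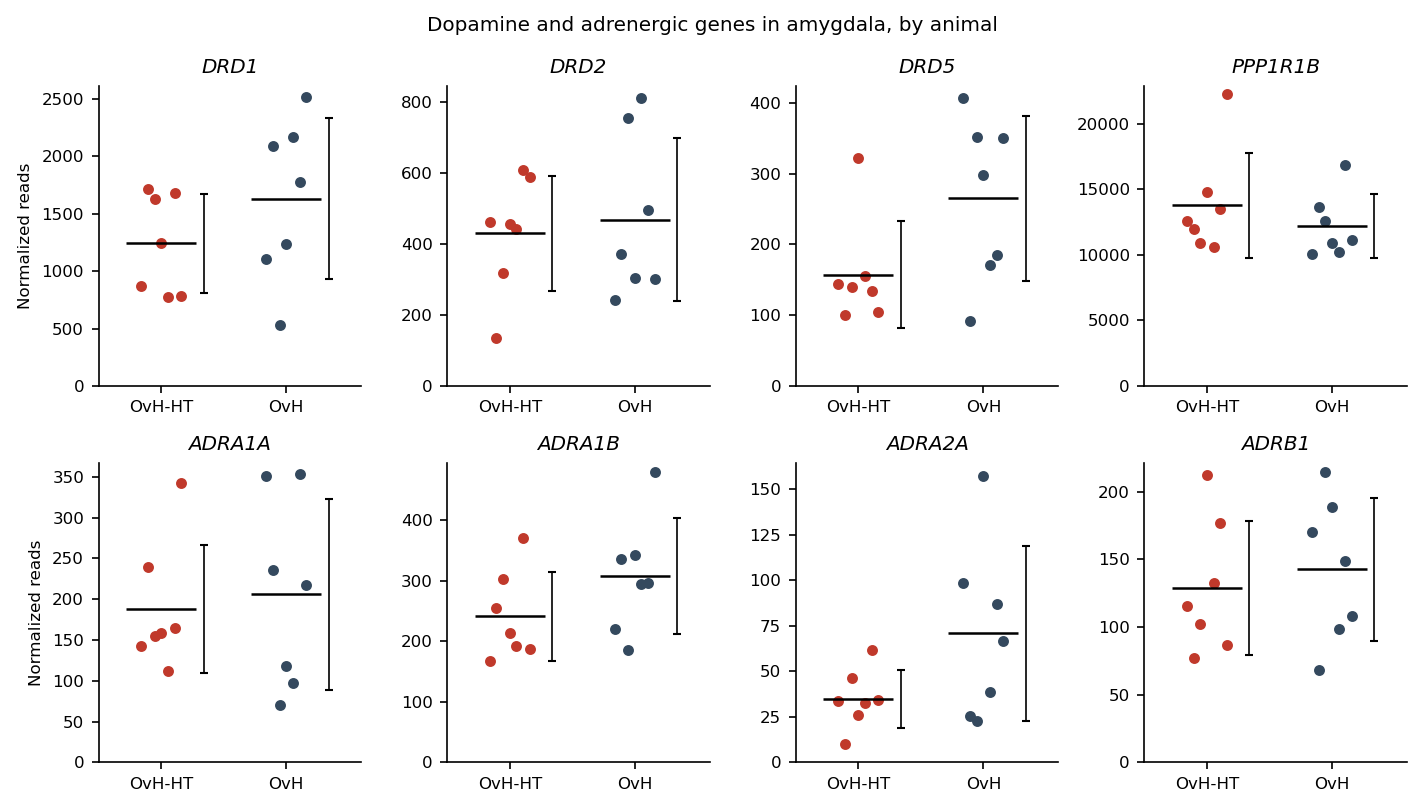
Normalized reads (y axes, linear) of the 8 members in amygdala for the OvH-HT and OvH groups, 1 point per animal, with the group mean (line) and SD (bar, n = 7). The groups overlap for every member, and DRD5 in OvH-HT animal 39 (323) lies apart from the other OvH-HT animals (99.7 to 155).

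Pan-neuronal markers were lower in OvH-HT amygdala. The 14 pan-neuronal markers, all measured and none near 0, summed to 477 to 666 k normalized reads in OvH-HT and 565 to 822 k in OvH, and their mean log2 level differed by -0.34 (exact permutation p = 0.0128, two-sided, n = 7 per group). In bulk tissue, fewer neurons and less RNA per neuron cannot be told apart. Myelin markers (12 of 14) summed to 783 to 1585 k in OvH-HT and 374 to 1274 k in OvH (mean log2 difference 0.40, exact permutation p = 0.139). Striatal projection neuron markers (13 of 15), which mark cells rich in DRD1, DRD2 and PPP1R1B, summed to 20.2 to 42.0 k in OvH-HT and 21.0 to 52.5 k in OvH (mean log2 difference 0.08, exact permutation p = 0.757). With the pan-neuronal level as a covariate, 0 identifiers passed in amygdala. Point estimates that changed sign became 0.25 for DRD1, 0.19 for ADRA1B, 0.10 for ADRB1, -0.00610 for PPP1R1B and -0.38 for ADRA1A. The covariate itself differed between the groups, so this fit cannot separate it from the treatment. Normalized totals were 71.1 ± 4.46 M reads in OvH-HT and 61.4 ± 4.08 M reads in OvH (SD, n = 7 each; exact permutation p = 0.00291). Under equal totals the median of all identifiers stood at -0.20 on the log2 scale, and PPP1R1B and ADRA1A turned to -0.0576 and -0.21, so that all 8 point estimates were lower in OvH-HT. Relative to that median, DRD5 stood at -0.71 and ADRA2A at -0.87, as in the deposited scaling.

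The same contrast was run in each other region, where 0% of all identifiers passed in hippocampus, occipital cortex, prefrontal cortex and on their mean per animal. None of the 7 members read there passed. edgeR called 0% of identifiers as well. DESeq2 called 0.0735% in hippocampus, 0.0372% in occipital and 0.0368% in prefrontal cortex, and 0.0550% on the 3 regions together, none of them a member. For the 3 regions together edgeR and DESeq2 used each animal's recovered reads summed over regions, not the mean of log2 values. An unadjusted limma p under 0.05 was found for 0 of 7 members in each of these fits, and for 2.05%, 1.88%, 3.70% and 3.16% of all identifiers in that order. In hippocampus 1 of 7 members was under 0.05 unadjusted by edgeR and by DESeq2, against 2.81% and 3.70% of all identifiers. Both fits included the libraries of animals 30 and 43 and were not repeated without them. On the mean of the 3 regions all 7 point estimates were lower in OvH-HT, with a median of -0.14 against 0.01 over all identifiers. The estimates of ADRA1A, ADRA1B and ADRB1 turned to 0.13, 0.19 and 0.03 without animals 30 and 43. DRD5 moved from -0.34 to -0.07, ADRA2A from -0.26 to -0.13, PPP1R1B from -0.04 to -0.05 and the row named DRD1 from -0.16 to -0.24.

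ADRA2A in the 2 cortices resembled its amygdala pattern without passing. In occipital cortex it had 36.3 to 145 normalized reads (median 99.8) in OvH-HT and 72.5 to 183 (median 147) in OvH, with all 7 OvH-HT animals below the OvH median and a log2 difference of -0.40 (interval -1.04 to 0.24). In prefrontal cortex it had 52.6 to 136 (median 95.6) in OvH-HT and 81.9 to 171 (median 134) in OvH, with 6 of 7 below the OvH median and a difference of -0.43 (interval -0.94 to 0.07). Its hippocampus values were 40.5 to 120 (median 90.1) in OvH-HT and 45.3 to 116 (median 89.1) in OvH, a difference of 0.06 with all animals and 0.13 without animals 30 and 43. The libraries come from the same 14 animals, so these regions are not independent samples of the treatment.

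Animals 30 and 43 set the hippocampal estimates of DRD5, ADRA1B and ADRB1. The DRD5 log2 difference was -1.01 (interval -2.29 to 0.27) with them and -0.23 (interval -1.27 to 0.81) without them. For ADRA1B the values were -0.35 with and 0.30 without both animals, and for ADRB1 -0.40 and -0.01. The row named DRD1 gave -0.01 with them and -0.26 (interval -0.50 to -0.01) without them, with a limma adjusted p of 0.803. In occipital cortex that row had 2286 to 5425 reads (median 4065) in OvH-HT and 3590 to 6115 (median 5181) in OvH, a log2 difference of -0.34 (interval -0.71 to 0.02). The remaining prefrontal and occipital estimates lay between -0.21 and 0.23.

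**Figure D3:**
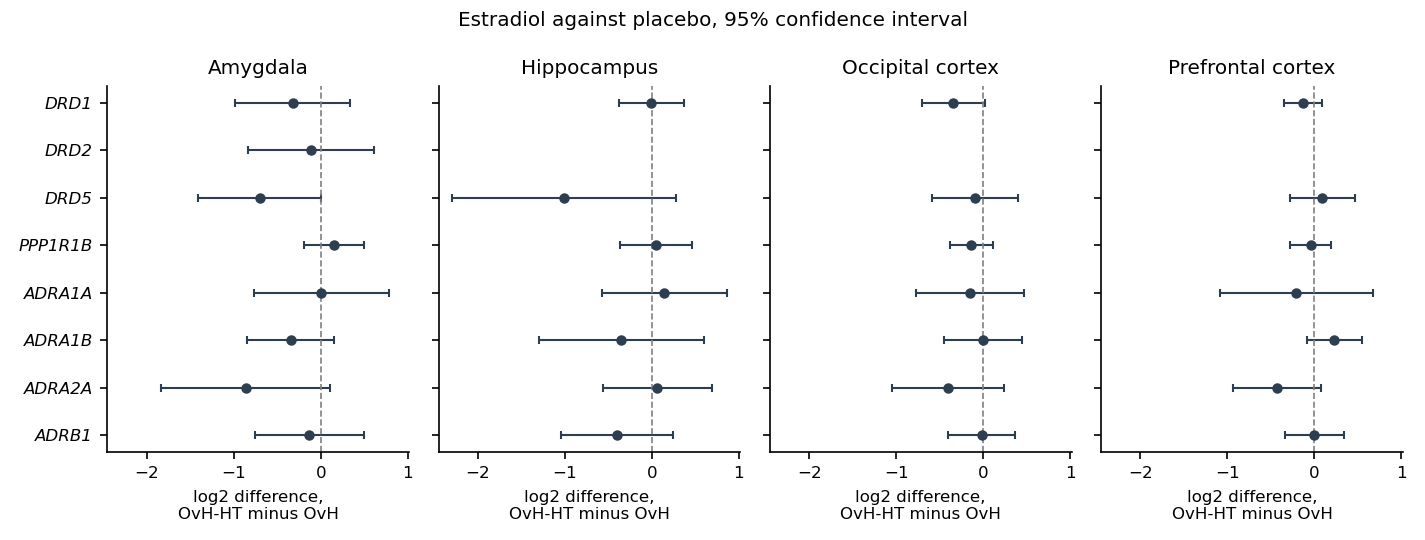
Log2 differences, OvH-HT minus OvH (x axes), for each member (rows) in the 4 regions, with 95% confidence intervals (n = 7 per group; DRD2 in amygdala only). Every interval includes 0, and the widest, DRD5 in hippocampus (-2.29 to 0.27), includes the libraries of animals 30 and 43.

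Whether the estradiol effect differed between amygdala and the mean of the other regions was tested per animal. None of 7 members passed, and 0% of 13468 identifiers did, with 0 members and 22.9% of identifiers at an unadjusted p under 0.05. edgeR called 5.81% and DESeq2 8.71% of identifiers, none of them a member. These 2 fits were not per animal. They took each library as a separate observation with the animal as a fixed effect, so their shares are not like the limma share. Effect differences ranged from -0.60 for ADRA2A (interval -1.57 to 0.36) to 0.20 for PPP1R1B (interval -0.12 to 0.52), and the DRD5 difference was -0.36 (interval -1.12 to 0.39).

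Large differences appeared between regions. These tests used the 42 libraries outside amygdala with the animal as a block, so they compare whatever transcript a row holds in those 3 regions. Amygdala levels are given as a description, since the choice of rows used them.

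DRD5 was highest in prefrontal cortex. It averaged 138 ± 159 normalized reads in hippocampus, 133 ± 38.8 in occipital and 511 ± 113 in prefrontal cortex (SD, n = 14), beside 211 ± 110 in amygdala. Without animals 30 and 43, hippocampus averaged 78.6 ± 46.5 (n = 12). The lowest prefrontal library, at 349, exceeded the highest occipital one, at 217, and hippocampus was above prefrontal cortex in 1 of 14 animals. Against prefrontal cortex the log2 difference was -2.48 ± 0.26 for hippocampus (SE, limma adjusted p = 1.19e-08) and -1.95 ± 0.26 for occipital cortex (limma adjusted p = 3.55e-07). Hippocampus against occipital cortex did not pass with all animals (-0.53, limma adjusted p = 0.0904), but was -0.93 without animals 30 and 43 (limma adjusted p = 9.58e-05) and passed without either one of them.

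ADRA1B differed between all 3 regions. It averaged 304 ± 261 normalized reads in hippocampus (209 ± 75 without animals 30 and 43, n = 12), 482 ± 120 in occipital and 1038 ± 204 in prefrontal cortex (SD, n = 14), beside 274 ± 88.7 in amygdala. Prefrontal values (738 to 1421) lay above all occipital values (269 to 665), and hippocampus was above prefrontal cortex in 0 of 14 animals. The log2 differences were -2.06 ± 0.21 for hippocampus against prefrontal cortex (limma adjusted p = 1.15e-08), -0.94 ± 0.21 for hippocampus against occipital cortex (limma adjusted p = 0.000484) and -1.12 ± 0.21 for occipital against prefrontal cortex (limma adjusted p = 7.42e-05). Without both animals the hippocampal differences widened to -2.33 and -1.26.

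The row named ADRB1 was low in hippocampus and alike in the cortices. It averaged 180 ± 91.9 normalized reads in hippocampus (146 ± 33.9 without animals 30 and 43, n = 12), 437 ± 92.2 in occipital and 464 ± 83.2 in prefrontal cortex (SD, n = 14), beside 136 ± 49.6 in amygdala. Hippocampus was below both cortices in all 14 animals, with log2 differences of -1.47 ± 0.13 against prefrontal cortex (limma adjusted p = 2.11e-09) and -1.38 ± 0.13 against occipital cortex (limma adjusted p = 3.75e-10). Without animals 30 and 43 these were -1.65 and -1.54. The occipital minus prefrontal difference was -0.09 (interval -0.37 to 0.18), which did not pass.

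ADRA1A had a different order, with its lowest level in occipital cortex. Its mean was 321 ± 134 normalized reads in hippocampus (292 ± 121 without animals 30 and 43, n = 12), 118 ± 46.2 in occipital and 326 ± 144 in prefrontal cortex (SD, n = 14), beside 197 ± 96.0 in amygdala. Hippocampus exceeded occipital cortex in 14 of 14 animals (log2 difference 1.41 ± 0.19, limma adjusted p = 2.35e-07), and occipital cortex exceeded prefrontal cortex in 1 of 14 (-1.37 ± 0.19, limma adjusted p = 7.09e-07). Without animals 30 and 43 hippocampus exceeded occipital cortex by 1.34. Hippocampus and prefrontal cortex differed by 0.03 (interval -0.35 to 0.42), which did not pass, and by -0.00795 without both animals. Individual animals varied widely within a region, with prefrontal values of 84.2 to 501.

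ADRA2A, PPP1R1B and the row named DRD1 varied less. ADRA2A averaged 82.8 ± 26.2 normalized reads in hippocampus, 115 ± 41.2 in occipital and 117 ± 35.8 in prefrontal cortex (SD, n = 14), beside 52.8 ± 39.2 in amygdala. Hippocampus was lower than prefrontal cortex (-0.50 ± 0.16, limma adjusted p = 0.0145, and -0.42 with 0.0444 without animals 30 and 43) and lower than occipital cortex (-0.44 ± 0.16, limma adjusted p = 0.0240). The occipital call was lost without animals 30 and 43 (adjusted p = 0.0776), without animal 32 (0.0630), 35 (0.0502) or 43 (0.0638), and without the animal block (0.0704). PPP1R1B averaged 12292 ± 3346 in hippocampus, 16043 ± 2104 in occipital and 14026 ± 2017 in prefrontal cortex, beside 12996 ± 3281 in amygdala, and by limma hippocampus against occipital cortex passed (-0.42 ± 0.11, limma adjusted p = 0.00169, and -0.38 with 0.00888 without animals 30 and 43). Occipital against prefrontal cortex passed by DESeq2 (0.25, DESeq2 adjusted p = 0.0481) but not by limma (0.20, limma adjusted p = 0.137). Without animals 33 and 40, whose hippocampus libraries were rich in choroid plexus markers, hippocampus also passed against prefrontal cortex for PPP1R1B (-0.37, limma adjusted p = 0.00208, against -0.22 and 0.0943 with them), as it did with equal library totals (-0.29, limma adjusted p = 0.0277). It passed too without animal 33 alone (-0.29, adjusted p = 0.0340) and without animal 40 alone (-0.29, adjusted p = 0.0161).

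The row named DRD1 averaged 5338 ± 1129 normalized reads in hippocampus (5662 ± 839 without animals 30 and 43, n = 12), 4569 ± 1032 in occipital and 4815 ± 625 in prefrontal cortex (SD, n = 14), beside 1437 ± 596 for DRD1 in amygdala. No difference passed with all animals. Without animals 30 and 43, hippocampus was higher by 0.22 than prefrontal cortex (limma adjusted p = 0.0427) and by 0.40 than occipital cortex (limma adjusted p = 0.000514), and leaving out animal 30 or 43 alone gave 0.31 and 0.30 against occipital cortex (adjusted p = 0.0104 and 0.0163). DRD2 averaged 449 ± 192 in amygdala (SD, n = 14), while its row held 63.7, 6.78 and 15.8 reads in hippocampus, occipital cortex and prefrontal cortex, which are not read as DRD2.

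In total 4 of 7 members passed between hippocampus and prefrontal cortex, all lower in hippocampus, where 43.4% of all identifiers passed (22.6% lower). Without animals 30 and 43 it was 5 of 7, 1 higher and 4 lower, beside 8434 of 16342 identifiers. Between hippocampus and occipital cortex 5 of 7 passed, 1 higher and 4 lower in hippocampus, where 50.7% of all identifiers passed (28.1% higher, 22.6% lower). Without both animals 6 of 7 passed, 2 higher and 4 lower, beside 9055 of 16342 identifiers. Between occipital and prefrontal cortex 3 of 7 passed by limma, all lower in occipital cortex, where 47.9% of all identifiers passed (28.2% lower). DESeq2 called PPP1R1B as a 4th member there, higher in occipital cortex, beside 8286 of 16354 identifiers. With 7 members, whether these counts differ from the shares of all identifiers was not tested. The 4 of 7 lower in hippocampus stood above the 22.6% lower of all identifiers in both comparisons. The sizes of the differences for DRD5, ADRA1A, ADRA1B and the row named ADRB1 were not set against those of all identifiers. Both treatment groups entered each of these tests.

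**Figure D4:**
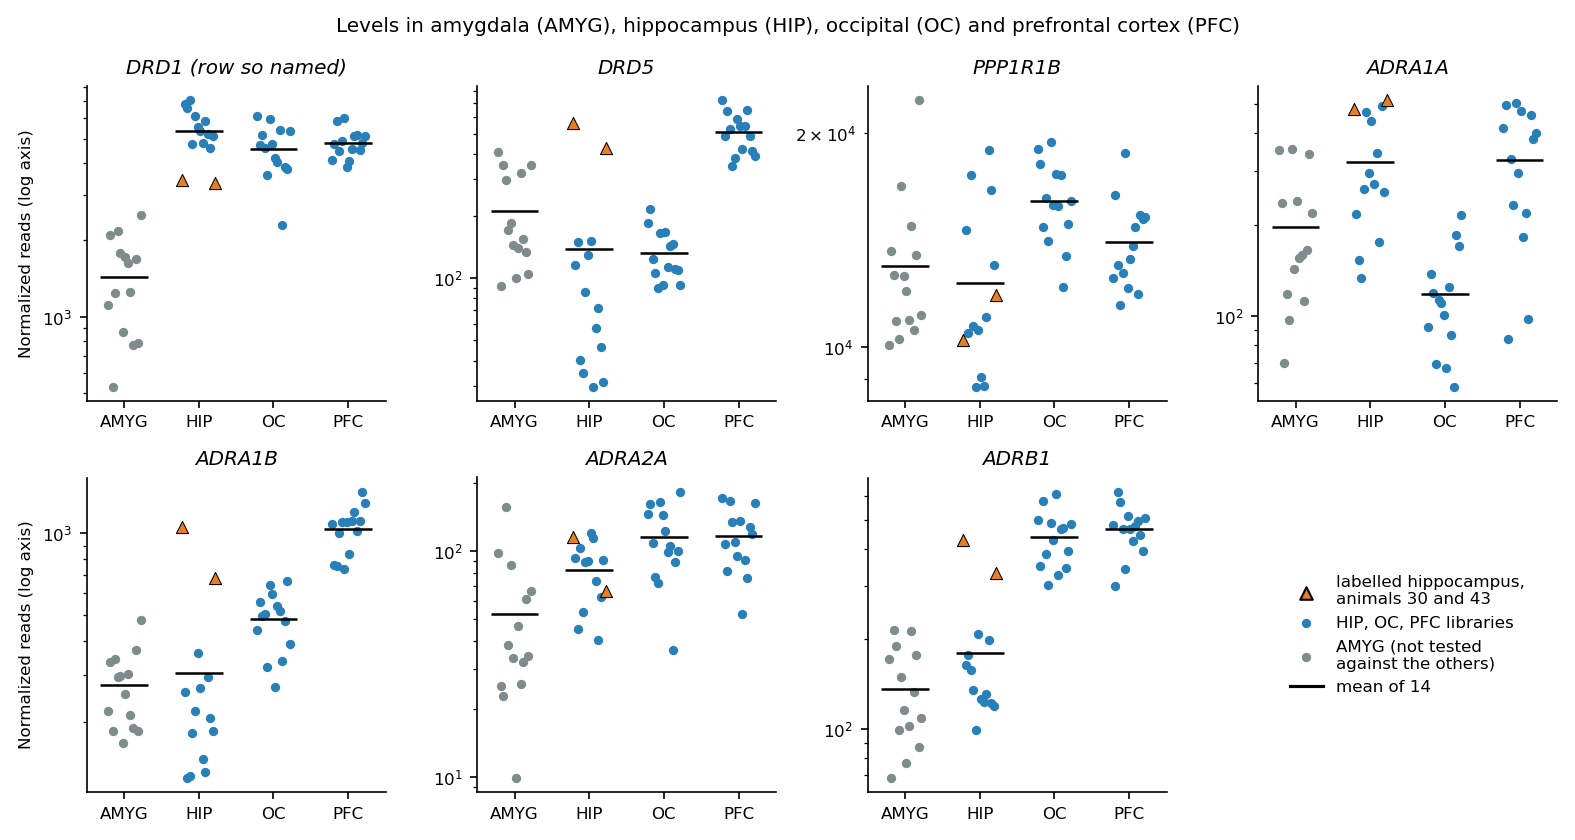
Normalized reads (y axes, log) of the 7 members read outside amygdala, in 14 libraries per region, with the mean of 14 (line); triangles mark the libraries labelled hippocampus of animals 30 and 43. DRD5 and ADRA1B are highest in prefrontal cortex (means 511 and 1038), ADRA1A is lowest in occipital cortex (118), and the row named ADRB1 is lower in hippocampus (180) than in either cortex.

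The rest of the pathway was described in amygdala from lists of related genes. Of 14 catecholamine receptors 11 were on 1 identifier each, and 0 passed (median log2 difference -0.32, against 0.01 over all identifiers). DRD3, DRD4 and ADRB3 were not analysed here. ADRA2C averaged 458 ± 142, ADRA1D 54.2 ± 32.2 and ADRA2B 21.9 ± 17.8 normalized reads in amygdala (SD, n = 14). ADRA1D also stood close to the limit for use outside amygdala (-1.98), and ADRA2B failed it.

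Among genes of catecholamine synthesis, transport and breakdown, 1 of 14 rose and 0 fell in OvH-HT amygdala, near the 6.16% higher and 0.732% lower among all identifiers. The gene that rose was PTS, which makes the cofactor of tyrosine hydroxylase. It had 3481 to 7248 normalized reads (median 4275) in OvH-HT and 2123 to 3383 (median 2952) in OvH, so the groups did not overlap (log2 difference 0.75 ± 0.18, SE, n = 7 per group; limma adjusted p = 0.0176). The call was lost with all regions in 1 fit and the animal as a random block (adjusted p = 0.350). That fit cannot decide the PTS call, because it also used the row outside amygdala, where PTS did not meet the level condition. ALDH1A1, an aldehyde dehydrogenase that also oxidizes a dopamine metabolite, had 23393 to 37225 (median 26540) in OvH-HT and 11228 to 27190 (median 19678) in OvH, and missed the threshold (0.63, limma adjusted p = 0.0588), but passed under the animal block (0.0430), with array weights (0.0213), with the striatal covariate (0.0262) and without animal 30, 31 or 39 (0.0295 to 0.0405). The list's median was 0.00.

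Of 15 genes for protein kinase A and cyclic nucleotide phosphodiesterases, 14 had a lower point estimate in OvH-HT (median -0.40, against 0.01 over all identifiers), and 1 fell while 0 rose, beside 0.732% lower and 6.16% higher of all identifiers. The pan-neuronal markers had a median of -0.34, with 13 of 14 lower. PRKAR1B, a regulatory subunit of protein kinase A enriched in neurons, had 7686 to 20483 normalized reads (median 15314) in OvH-HT and 14937 to 33702 (median 25497) in OvH (log2 difference -0.76 ± 0.21, SE, n = 7 per group; limma adjusted p = 0.0363). The groups overlapped at their edges. PDE1B, a calcium-activated phosphodiesterase, had 5529 ± 1165 in OvH-HT and 7783 ± 2060 in OvH (SD, n = 7 each; -0.47, limma adjusted p = 0.140).

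Of 15 genes around DARPP-32, 1 fell and 0 rose (median -0.11), beside 0.732% lower and 6.16% higher of all identifiers. CSNK1D, a casein kinase of the type that phosphorylates DARPP-32, had 4365 to 6755 normalized reads (median 5234) in OvH-HT and 5950 to 8735 (median 7478) in OvH (log2 difference -0.43 ± 0.12, SE, n = 7 per group; limma adjusted p = 0.0378), a call lost under the animal block (adjusted p = 0.0654). CSNK2A1, another casein kinase subunit, had 7203 ± 1027 in OvH-HT and 8906 ± 1125 in OvH (SD, n = 7 each; -0.31, limma adjusted p = 0.135). None of 20 G protein and adenylyl cyclase genes passed (median -0.10), with GNAQ at -0.43 (limma adjusted p = 0.156) and GNAI2 at -0.33 (limma adjusted p = 0.169). Among 13 genes of receptor desensitisation and trafficking 0 passed (median 0.03). RGS4, which shortens Gq and Gi signals, had 24230 ± 4050 in OvH-HT and 40145 ± 15476 in OvH (SD, n = 7 each; -0.66, limma adjusted p = 0.0635), and RGS2 had 10014 ± 3345 in OvH-HT and 6453 ± 1879 in OvH (0.61, limma adjusted p = 0.106).

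PRKAR1B lost its call without animal 33, 34, 35, 36, 37, 40, 42 or 43 (adjusted p = 0.0580 to 0.0898), and CSNK1D without those or animal 38 (0.0525 to 0.0910). PTS passed without each animal in turn. With the pan-neuronal covariate the values were 0.42 for PTS, -0.42 for PRKAR1B and -0.30 for CSNK1D, none of which passed. PTS did not meet the level condition and was not read outside amygdala. On the mean of the other 3 regions 0 genes of these lists passed, and 0% of all identifiers did. The leading receptor values there were -0.34 for DRD5 and -0.16 for the row named DRD1. Without animals 30 and 43 these were -0.07 and -0.24. Other lists led with -0.28 for TH and 0.12 for ALDH1A1, 0.10 for ADCY3 and 0.11 for GNAI3, and -0.16 for PRKAR1B and 0.10 for PRKACB. The last lists led with 0.13 for PPP3CA and 0.17 for PPP3R1, and -0.15 for GRK6 and -0.16 for CALY. With all animals each of these values had a limma adjusted p of 0.999964.

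How the members varied among themselves was examined over the 14 amygdala libraries, after subtracting group means. Of 28 pairs, 13 had a positive and 15 a negative r, and 2 passed a permutation test with adjustment over the 28. The share of all gene pairs that would pass was not computed, so neither pair is shown to be particular to these genes. DRD1 and ADRA1B varied together (Pearson r = 0.84, Spearman rho = 0.78, adjusted permutation p = 0.00420 and 0.0293), and r was 0.78 without the 2 animals farthest from the median of the first gene. DRD5 and ADRB1 did so too (r = 0.79, rho = 0.77, adjusted permutation p = 0.0111 and 0.0293), with r = 0.61 without the 2 such animals. The most negative pair was DRD1 with ADRB1 (r = -0.47, rho = -0.41, adjusted permutation p = 0.611 and 0.600). DRD1 with DRD5, both receptors that raise cyclic AMP, had r = -0.36 and rho = -0.42 (adjusted permutation p = 0.612 and 0.600).

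Members were also set against 5 marker lists in the same libraries, 40 relations in all, of which 4 passed by r. The share over all genes was not computed here either. ADRA1B followed the pan-neuronal markers (r = 0.75, rho = 0.82, adjusted permutation p = 0.0331 and 0.0260, with r = 0.68 without the 2 farthest animals). The other 3 passed by r and missed the threshold by rho. ADRA2A ran opposite to the myelin markers (r = -0.74, rho = -0.75, adjusted permutation p = 0.0331 and 0.0560; r = -0.53 without the 2 farthest animals). ADRA1A ran opposite to GABAergic neuron markers (r = -0.76, rho = -0.73, adjusted permutation p = 0.0331 and 0.0565; r = -0.59 without them) and with intercalated amygdala neuron markers (r = 0.73, rho = 0.67, adjusted permutation p = 0.0354 and 0.0906; r = 0.75 without them). DRD1, DRD2 and PPP1R1B had r of 0.24, 0.06 and 0.37 with the striatal projection neuron markers, none of which passed (adjusted permutation p = 0.617, 0.945 and 0.493). With the pan-neuronal markers that ADRA1B followed, DRD1 had r = 0.52 and rho = 0.62, which did not pass (adjusted permutation p = 0.407 and 0.147).

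ADRA1A varied between animals alike in several regions. Its amygdala deviations followed its mean deviations in the other 3 regions (r = 0.74, rho = 0.80, permutation p adjusted over 7 members = 0.0176 and 0.00609, with r = 0.63 without the 2 farthest animals), a relation examined after the values were seen. By region the r with amygdala was 0.65 for hippocampus, 0.24 for occipital cortex and 0.78 for prefrontal cortex. Among 11501 genes the median of this r was 0.38, with quartiles of 0.10 and 0.62, and ADRA1A stood at percentile 86.5. The other 6 members did not pass, with r of 0.46 for PPP1R1B, 0.32 for ADRB1, 0.27 for DRD5, 0.10 for ADRA2A, -0.00 for ADRA1B and -0.23 for the row named DRD1.

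**Figure D5:**
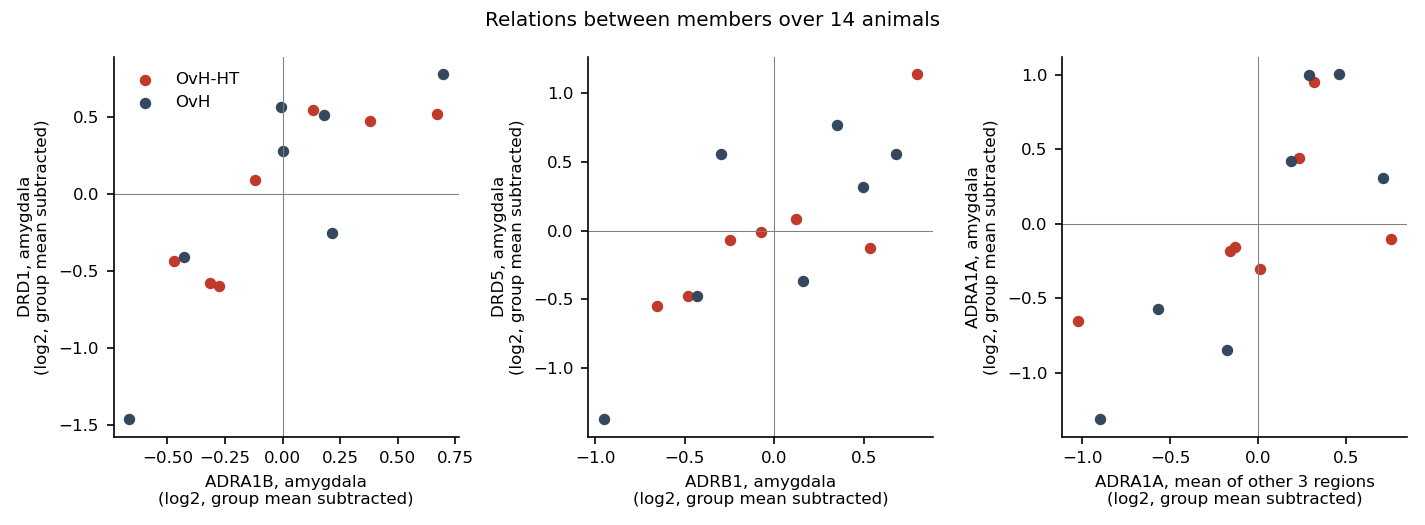
Log2 values with group means subtracted, 1 point per animal (n = 14), for DRD1 against ADRA1B and DRD5 against ADRB1 in amygdala and for ADRA1A in amygdala against its mean over the other 3 regions. The points rise together in each plot (r = 0.84, 0.79 and 0.74), with OvH-HT and OvH animals intermixed.

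The genes whose amygdala values were most like those of a member were sought among genes with a mean of at least 100, by r over the same 14 libraries with group means subtracted. For DRD1 they were GPR158 (r = 0.92), COL25A1 (0.91) and KCND2 (0.91), and for DRD2 they were THRA (0.88), CHRD (0.87) and RGS14 (0.87). PPP1R1B was most like SH3TC1 (0.91), TIMP3 (0.91) and B4GALT1 (0.89). ADRA2A was most like CDK5R2 (0.91), SPTBN4 (0.89) and FBXL19 (0.88), and ADRB1 most like CSK (0.91), CSNK1E (0.91) and GAA (0.91). These are the highest of about 12576 values of r for each member, given as a description.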

How the data were processed

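Messenger RNA was measured in 56 libraries of 14 animals. The deposited values are a normalized read signal, made by the authors and named upper-quartile normalized. The tools listed in the submitters' processing notes are STAR 2.7.3a, Trimmomatic, edgeR 3.28.0 and FastQC 0.1.1.2, with Mmul_10 as the genome build. The counting program and its strand setting are not given in the sources used here. Undoing each library's scaling gave whole reads for 100% of values within 0.01 reads.

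Groups and animal numbers came from the labels, and the number joins the 4 libraries of an animal. Over 11501 genes, the deviations of an animal in amygdala and in the other regions had a median r of 0.38. limma 3.58.1 (R 4.3.3, intensity trend) tested log2(value + 1) of identifiers with a mean of at least 10, two-sided, with Benjamini-Hochberg adjustment over all identifiers. Fold changes are on that scale, which understates changes of low genes. Regions outside amygdala were compared with the animal as a fixed block. edgeR 4.0.16 and DESeq2 1.42.0 on recovered reads, other scalings and filters, covariates and omitted animals were alternatives. Fits by limma, edgeR and DESeq2 were tested on simulated data for OvH-HT against OvH in amygdala and for hippocampus against prefrontal cortex only. Correlations used 100000 permutations.

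The members and gene lists were chosen with earlier results of these data known. Named besides the members are list genes past the threshold, the 2 with the smallest p per list, and the 3 genes most like each of 5 members. Transcript lengths were not used, so levels are not compared between genes. Replicates are separate animals. No coordinates or sequences were used.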

Additional observations from a re-analysis of the deposited data

Results flagged for a closer look

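Among 58 groups of 7 libraries examined, 4 held an animal whose gap to its nearest neighbour was large for the range of its group (past Dixon's 95% critical value), and chance alone marks about 1 in 20 groups. In OvH-HT amygdala, DRD5 had 323 normalized reads in animal 39, against 99.7 to 155 in the other 6. In OvH-HT occipital cortex, animal 40 was low for both the row named DRD1, at 2286 against 3809 to 5425, and ADRA2A, at 36.3 against 89.1 to 145. In OvH prefrontal cortex, ADRA1A had 84.2 in animal 32, against 232 to 501. Animal 32 also had the lowest ADRA1A value in amygdala, at 70.1.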

How the results depend on the processing

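No member passed the OvH-HT test under any alternative run or without any single animal, but many small differences changed sign. In amygdala ADRA1A became -0.21 with equal library totals, -0.00229 with a pseudocount of 10, -0.26 by edgeR, -0.18 by DESeq2, -0.0807 with array weights, -0.38 with the pan-neuronal covariate and -0.0495 with the striatal one. PPP1R1B became -0.0576 with equal totals and -0.00610 with the pan-neuronal covariate, and DRD2 became 0.10 with array weights and 0.0148 with the myelin covariate. The pan-neuronal covariate also gave 0.25 for DRD1, 0.19 for ADRA1B and 0.10 for ADRB1. In hippocampus DRD1 became 0.0166 with equal totals and 0.0628 without animals 33 and 40, PPP1R1B -0.12 with array weights, and ADRA1B 0.10 with array weights, 0.23 with the myelin covariate and 0.30 without animals 30 and 43. In occipital cortex ADRA1B became 0.00469 with equal totals, 0.0256 by edgeR, 0.0291 by DESeq2, 0.10 with array weights and 0.00471 with the myelin covariate, ADRA1A 0.0453 with array weights, and ADRB1 0.00818 with the myelin covariate. In prefrontal cortex PPP1R1B became 0.0109 with array weights and 0.0132 with the pan-neuronal covariate, and ADRB1 0.00345 with the myelin covariate. On the mean of the 3 regions ADRA1A became 0.00136 with array weights, 0.10 with the myelin covariate, 0.13 without animals 30 and 43 and 0.00523 without 33 and 40, ADRA1B 0.12 with the myelin covariate and 0.19 without 30 and 43, and ADRB1 0.0315 without 30 and 43. For the amygdala effect minus that elsewhere, equal totals gave -0.0236 for PPP1R1B, -0.14 for ADRA1A and -0.21 for ADRB1, and the pan-neuronal covariate 0.25 for DRD1, 0.11 for DRD5, -0.29 for ADRA1A and 0.31 for ADRA1B. ADRB1 became -0.0457 with array weights and -0.15 without animals 30 and 43 there. Between hippocampus and prefrontal cortex ADRA1A became -0.0340 with equal totals and -0.00795 without 30 and 43, and between the cortices ADRA2A became 0.12 without 33 and 40. The cause of these changes was not tested.

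Leaving out 1 animal at a time, values that changed sign ranged in amygdala from -0.25 to 0.14 for DRD2 and -0.21 to 0.17 for ADRA1A. In hippocampus they ranged from -0.12 to 0.0639 for DRD1, -0.0613 to 0.14 for PPP1R1B, -0.0336 to 0.29 for ADRA1A and -0.0663 to 0.22 for ADRA2A. In occipital cortex they ranged from -0.19 to 0.0196 for DRD5, -0.0957 to 0.13 for ADRA1B and -0.10 to 0.0536 for ADRB1, and in prefrontal cortex from -0.0917 to 0.0264 for PPP1R1B, -0.52 to 0.0336 for ADRA1A and -0.10 to 0.0725 for ADRB1. On the mean of the 3 regions the ranges were -0.22 to 0.10 for ADRA1A and -0.12 to 0.0694 for ADRA1B. For the difference of effects they were -0.0341 to 0.22 for ADRA1A and -0.12 to 0.14 for ADRB1. ADRA1A ranged from -0.0286 to 0.14 between hippocampus and prefrontal cortex, and ADRA2A from -0.13 to 0.0280 between the cortices. Members past the threshold numbered 4 to 5 between hippocampus and prefrontal cortex, 4 to 7 between hippocampus and occipital cortex, and 3 in every case between the cortices. All identifiers past it numbered 6306 to 7807, 7755 to 8612 and 7260 to 7968 in the same order.

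A limit of 1 in place of 2 on the level difference admitted 4 members outside amygdala in place of 7. Removing those nearer to an exchanged row, an alternative chosen after seeing the data, left 5. With all regions in 1 fit and the animal as a random block, 0 members passed, PTS lost its call (0.350), as did CSNK1D (0.0654), and ALDH1A1 gained one (0.0430). That fit applied no level condition. PTS did not meet this condition, so the fit cannot decide the PTS call. PRKAR1B lost its call with no filter on low values (-0.76, adjusted p 0.0600), without the intensity trend (-0.76, 0.0559) and with the myelin covariate (-0.71, 0.107), against -0.76 as reported. CSNK1D lost its call without the trend (-0.43, 0.0606) and with the myelin covariate (-0.40, 0.109), against -0.43. Equal totals brought GNAQ (0.0490), GNAI2 (0.0359), PDE1B (0.0303), CSNK2A1 (0.0295) and RGS4 (0.0215) past the threshold, and RGS4 also passed by edgeR (0.0315) and DESeq2 (0.0103). Array weights did so for ALDH1A1 (0.0213), GNAQ (0.0168), PDE1B (0.0410), CSNK2A1 (0.0145), RGS4 (0.00831) and RGS2 (0.0262), and the striatal covariate for ALDH1A1 (0.0262) and RGS2 (0.0431). Without the animal block, 4 members in place of 5 passed between hippocampus and occipital cortex, beside 7236 in place of 8298 identifiers. Identifiers past the threshold in amygdala numbered 1112, against 1728 by DESeq2, 3525 with array weights, 605 with the myelin covariate, 0 with the pan-neuronal covariate, and 548 (without animal 33) to 2362 (without animal 32). For the difference of effects there were 0, against 539 with equal totals, 786 by edgeR, 1177 by DESeq2, 3545 with array weights, 1080 under the block and up to 1162 without 1 animal. There edgeR and DESeq2 took each library as a separate observation, and the block fit applied no level condition. ADRA2A, with 10 to 176 reads in amygdala, is the member that depth limits most.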
